A study of Arabidopsis thaliana with 4 samples.

Results

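The WRKY and NAC families of plant transcription factors were examined in roots of Arabidopsis thaliana. The members were the rows of the value table that the platform annotation assigned to 1 gene whose symbol was WRKY or NAC followed by digits only. This gave 8 genes among the 16548 genes with a row of their own. Of these, 7 were WRKY genes (WRKY6, WRKY20, WRKY22, WRKY29, WRKY41, WRKY42 and WRKY47) and 1 was a NAC gene, NAC014. Each had a single row, so no choice between rows was needed. The 2 families could therefore be set side by side only as 7 genes against 1. The reference gene table lists 67 WRKY and 79 NAC symbols of this form, so the members are 10.4% and 1.27% of them, and the others were not analysed here. What follows describes these 8 genes and not the families as a whole.

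The samples were 4 Affymetrix Arabidopsis Gene 1.0 ST arrays, 1 for each genotype. Beside wild type (WT, Col), there was 1 array each for the overexpression genotypes CEPD1ox, CEPD2ox and CEPDL2ox, named after CEPD1, CEPD2 and CEPDL2, small glutaredoxin-like polypeptides known as shoot-to-root signals of nitrogen demand. All 4 were roots of plants grown for 14 d at 22 °C in continuous light, on medium with 10 mM NH4Cl and 10 mM KNO3 after a transfer at 7 d. Neither the promoter that drives each transgene nor the number of independent lines or plants behind an array is given in the sources used here. With 1 array per group there was no spread within a group, no test and no replicate check of any difference. A value below is a log2 signal, and a log2 ratio is the signal of a line minus that of the WT array. The 3 comparisons share the WT array.

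WRKY factors bind the W-box, a short DNA element, through a domain named after its invariant amino acids. They are grouped by the number of these domains and by the zinc finger that goes with them, and are known for immune, senescence and nutrient responses. NAC factors share a different N-terminal DNA-binding domain. They are known for roles in xylem and root cap differentiation, organ boundaries, senescence and stress, and some are held at membranes until released. No sequences were given with these data beyond names, so none are shown.

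The arrays were alike as a whole, with Pearson's r between 0.983 and 0.984 across all rows of any 2 arrays, over rows that are not independent replicates. The introduced genes checked the labels in 2 of the 3 lines. CEPD2 had a signal of 9.22 on the CEPD2ox array and 1.41 on the WT array, and CEPDL2 had 5.49 on the CEPDL2ox array and 3.46 on the WT array. CEPD1 had 2.66 in WT and 3.04 on the array labelled CEPD1ox. This is a log2 ratio of 0.38 around the filter value given below, so overexpression was not seen there. Every value given for CEPD1ox below is that of the array labelled so. Of 18 root markers, 2 could be read, both root hair expansins. EXPA7 had 6.60 in WT, 6.72 in CEPD1ox, 6.58 in CEPD2ox and 6.83 in CEPDL2ox, and EXPA18 had 8.24, 8.36, 8.14 and 8.63. Of 10 shoot markers, 2 could be read. PRK, the phosphoribulokinase of the Calvin cycle, had 4.58 in WT, 3.27 in CEPD1ox, 2.94 in CEPD2ox and 2.47 in CEPDL2ox. RCA, the Rubisco activase, had 6.31, 5.73, 6.14 and 5.66 in the same order. Both root markers were highest in CEPDL2ox and lowest in CEPD2ox, and both shoot markers were highest in WT. The part of this in the ratios below was not tested.

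None of the 8 members was 2-fold higher or lower than WT in any line, and none reached 1.5-fold. All 8 lay above the filter value of 2.78, the 25th percentile of all gene values, on all 4 arrays, so none of them was kept for a high signal on 1 array alone. Among the 13232 genes past this filter, 1.21% were past 2-fold in CEPD1ox, 0.899% in CEPD2ox and 1.26% in CEPDL2ox. At 1.5-fold the shares were 6.92%, 5.93% and 6.63%. With 8 genes, a count of 0 is near what such shares give, so it is not a result about these genes. The data show the size of each difference, and these sizes were small. The log2 ratios of the WRKY members ran from -0.18 to 0.11 in CEPD1ox, from -0.32 to 0.22 in CEPD2ox and from -0.10 to 0.28 in CEPDL2ox. NAC014 had ratios of -0.09, 0.08 and 0.13.

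**Figure D1:**
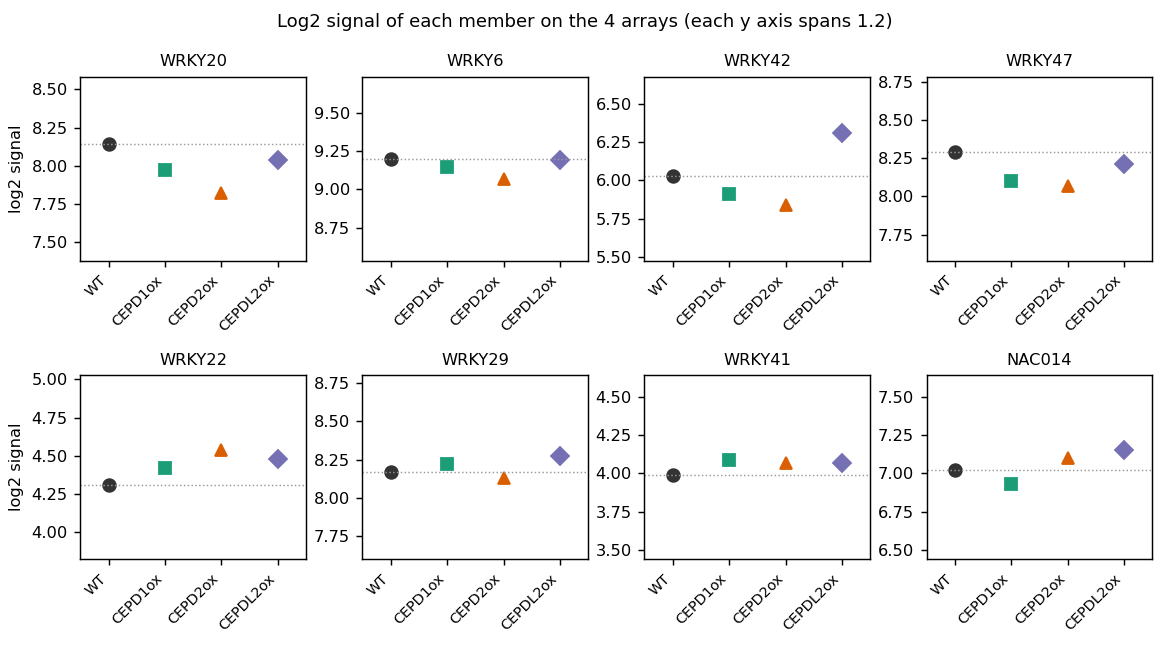
Log2 signal of the 7 WRKY members and NAC014 (y axis, each panel spanning the same width of log2 signal) on the WT, CEPD1ox, CEPD2ox and CEPDL2ox arrays (x axis); each point is 1 array and the dotted line marks the WT value. WRKY42 has the widest range over the arrays, 0.48, and WRKY41 the narrowest, 0.10.

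The group IIb members WRKY6, WRKY42 and WRKY47 were described first, since 3 of the 8 listed genes of this group could be read, more than in any other group. WRKY6 and WRKY42 are known as repressors of PHO1, the phosphate exporter that loads the root xylem, and WRKY6 also acts in senescence and defence. WRKY6 (AT1G62300) had a log2 signal of 9.20 in WT, 9.15 in CEPD1ox, 9.07 in CEPD2ox and 9.19 in CEPDL2ox. All 3 lines lay at or just under WT, with ratios of -0.05, -0.13 and -0.01. WRKY47 (AT4G01720) had 8.29, 8.10, 8.07 and 8.21 in the same order. Its ratios were -0.18, -0.21 and -0.08, with WT the highest of the 4 arrays and CEPD2ox the lowest.

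WRKY42 (AT4G04450) differed more between the lines than the other members did. Its log2 signal was 6.03 in WT, 5.91 in CEPD1ox, 5.84 in CEPD2ox and 6.31 in CEPDL2ox. The CEPDL2ox array lay above WT by 0.28, or 1.22-fold, while CEPD1ox and CEPD2ox lay below it, with ratios of -0.12 and -0.19. Between the lines, CEPDL2ox stood 0.48 above CEPD2ox, which is 1.39-fold, and 0.40 above CEPD1ox, which is 1.32-fold. These differences do not use the WT array. Among the 4298 genes past the filter with a WT signal of 5 to 7, 7.86% differed as much or more between CEPDL2ox and CEPD2ox, in either direction, and 8.40% between CEPDL2ox and CEPD1ox. Against WT, 22.1% of that class differed as much in CEPDL2ox. Between CEPD1ox and CEPD2ox, 73% of the class differed as much or more. Over the 4 arrays, 80% of the class had a smaller range than WRKY42. WRKY42's position is therefore towards the edge of its class in some comparisons and not outside it. It was singled out here for having the widest range of the members, so such a position is not a result about it. Of the genes of that class, 28.8% were highest on CEPDL2ox, 26.1% on WT, 22.8% on CEPD2ox and 22.3% on CEPD1ox. The root markers EXPA7 and EXPA18 were highest on the CEPDL2ox array too, with ratios of 0.23 and 0.39. Their part in the order of WRKY42 was not tested. PHO1, listed with the root markers, had no row of its own name and was not analysed here.

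WRKY20 (AT4G26640), of group I, whose proteins carry a pair of WRKY domains, had a log2 signal of 8.14 in WT, 7.97 in CEPD1ox, 7.82 in CEPD2ox and 8.04 in CEPDL2ox. WT was the highest array and CEPD2ox the lowest. The ratio in CEPD2ox, -0.32, was the largest in size among the members in any line, and the WT signal was 1.25-fold that of CEPD2ox. In the 3966 genes with a WT signal of 7 or above, 6.40% differed as much or more from WT in CEPD2ox. It was the only one of the 24 member ratios outside the 5th to 95th percentile range of its class, here -0.31 to 0.22. Such a range leaves 5% of a class outside at each end by definition. A count of 1 in 24 is therefore not a result about the members. The other ratios of WRKY20 were -0.17 in CEPD1ox and -0.10 in CEPDL2ox.

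The group IIe members WRKY22 and WRKY29 are known as immune factors that act downstream of a mitogen-activated protein kinase cascade in the response to bacterial flagellin. WRKY22 (AT4G01250) had 4.31 in WT, 4.42 in CEPD1ox, 4.54 in CEPD2ox and 4.48 in CEPDL2ox. Here WT was the lowest array, and the ratios were 0.11, 0.22 and 0.16. WRKY29 (AT4G23550) had 8.17, 8.22, 8.13 and 8.27 in the same order, with ratios of 0.05, -0.04 and 0.10, so that the lines lay on both sides of WT. The 2 genes of this pair thus did not follow the same order over the arrays: CEPD2ox was highest for WRKY22 and lowest for WRKY29. This order rests on small differences between single arrays. For WRKY22, 53.6% of the 4968 genes with a WT signal below 5 differed as much or more in CEPD2ox, where its ratio was widest. For WRKY29, 75.3% of the genes with a WT signal of 7 or above differed as much or more in CEPD2ox. Over the 4 arrays, 9.26% of its class had a smaller range than WRKY22, and 26.8% of its class a smaller one than WRKY29.

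WRKY41 (AT4G11070), of group III, is known to act in defence and in the control of seed dormancy. Its log2 signal was 3.99 in WT, 4.09 in CEPD1ox, 4.07 in CEPD2ox and 4.07 in CEPDL2ox. The lines lay within 0.02 of each other and 0.08 to 0.10 above WT. Over the 4 arrays its range was 0.10, and 1.25% of the genes of its class had a smaller one, the median range there being 0.52. By this measure WRKY41 varied least of the 8 members. It also had the lowest WT signal of the 8, and whether a small range at such a signal reflects a steady transcript was not tested.

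NAC014 (AT1G33060), also known as NTL2, encodes a NAC factor with a predicted membrane anchor. It had a log2 signal of 7.02 in WT, 6.93 in CEPD1ox, 7.10 in CEPD2ox and 7.15 in CEPDL2ox. The array labelled CEPD1ox was the lowest and CEPDL2ox the highest, with ratios of -0.09, 0.08 and 0.13. CEPDL2ox was also the highest array for both root markers, and their part in this was not tested. Among genes with a WT signal of 7 or above, 28.2% were highest on CEPDL2ox, 26.4% on WT, 23.4% on CEPD2ox and 22% on CEPD1ox. CEPDL2ox stood 0.22 above the array labelled CEPD1ox, or 1.17-fold, and 13.2% of the genes of its class differed as much or more between these 2 arrays. Against WT, 51.4%, 55.1% and 39.9% of its class differed as much or more in CEPD1ox, CEPD2ox and CEPDL2ox, which places NAC014 in the middle of its class.

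**Figure D2:**
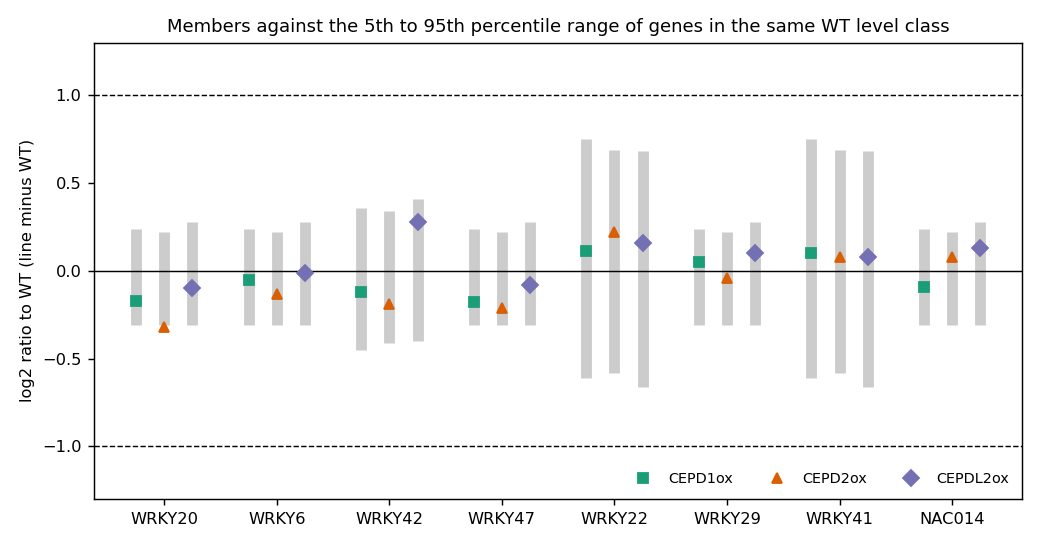
Log2 ratio of each member to WT (y axis) in the 3 lines (squares CEPD1ox, triangles CEPD2ox, diamonds CEPDL2ox, 1 array each); grey bars span the 5th to the 95th percentile of genes past the filter in the same WT level class (below 5, 5 to 7, 7 or above), and dashed lines mark 2-fold. WRKY20 in CEPD2ox, at -0.32, is the only member ratio outside its bar. By definition a bar leaves out 5% of the genes of its class at each end.

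Set side by side, the median log2 ratio of the 7 WRKY members was -0.05 in CEPD1ox, -0.13 in CEPD2ox and 0.08 in CEPDL2ox. That of all genes past the filter was 0.00 in each line. The median size of the ratio, whatever its sign, was 0.11, 0.19 and 0.10 for the WRKY members, against 0.15, 0.15 and 0.16 for all genes. The median size over genes depends on the signal level, and the WRKY members lay at different levels. WRKY6, WRKY20, WRKY29 and WRKY47 had a WT signal of 7 or above, where that of genes was 0.09, 0.10 and 0.10. For WRKY42, with a WT signal of 5 to 7, it was 0.14, 0.14 and 0.15. For WRKY22 and WRKY41, below 5, it was 0.24 in each line. NAC014 alone stood for the NAC family, at -0.09, 0.08 and 0.13, within the range of the WRKY members in each line. Whether the families differ could not be tested with 1 NAC gene.

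Of the 7 WRKY members, 5 were lowest on the CEPD2ox array (WRKY6, WRKY20, WRKY29, WRKY42 and WRKY47). The other two, WRKY22 and WRKY41, were lowest on the WT array and were the members with a WT signal below 5. Among genes with a WT signal of 7 or above, 30.6% were lowest on the CEPD2ox array, against 25.1% on CEPD1ox, 22.4% on CEPDL2ox and 22.0% on WT. In the class of WRKY42, with a WT signal of 5 to 7, 27.7% were lowest on the CEPD2ox array, 26.6% on CEPD1ox, 23.5% on WT and 22.2% on CEPDL2ox. Below a WT signal of 5, 28.3% were lowest on CEPDL2ox, 27.5% on WT, 22.8% on CEPD2ox and 21.4% on CEPD1ox. Whether the members' order differs from that of genes of like signal was not tested. NAC014 was lowest on the array labelled CEPD1ox.

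**Figure D3:**
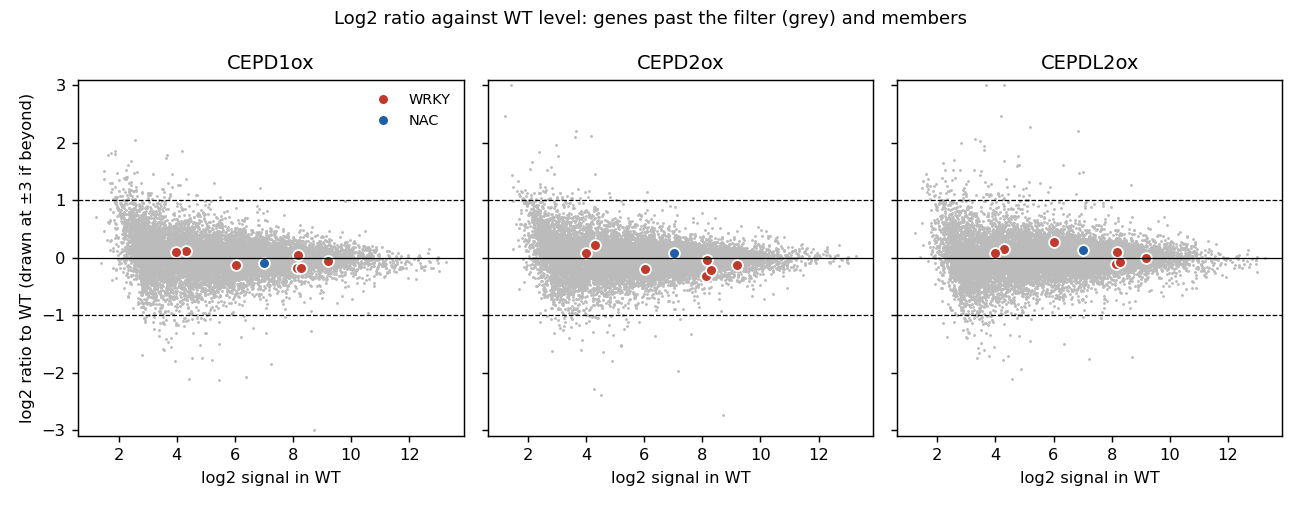
Log2 ratio to WT (y axis) against the log2 signal in WT (x axis) for the 13232 genes past the filter (grey) and the members (red WRKY, blue NAC), 1 panel per line; dashed lines mark 2-fold and ratios beyond ±3 are drawn at ±3. The members lie near 0 within the grey cloud, whose width narrows as the WT signal rises.

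Few genes of the other lists, drawn up around the 2 families, could be read. Those lists tie no gene to a given member. No gene was read among 20 WRKY partners and kinases, 17 salicylic acid and camalexin genes, 5 WRKY genes under other symbols or 38 NAC symbols of other kinds. Of 15 senescence and mitochondrial retrograde genes, 1 could be read. SAG29, a sugar transporter gene of senescing tissue also called SWEET15, had log2 signals of 4.67 in WT, 3.98 in CEPD1ox, 4.17 in CEPD2ox and 4.27 in CEPDL2ox. All 3 lines lay below WT, with ratios of -0.69, -0.50 and -0.40. None was past 2-fold, and that in CEPD1ox was past 1.5-fold and below the 5th percentile of its class, -0.61. In that class, with a WT signal below 5, the 5th and 95th percentiles in CEPD1ox, -0.61 and 0.75, were themselves past 1.5-fold. Of 23 secondary wall and vessel genes, 1 could be read. GUT2, also called IRX10, which takes part in xylan synthesis, had 7.78, 7.76, 7.45 and 7.60, with ratios of -0.01, -0.33 and -0.18. Its ratio in CEPD2ox was below the 5th percentile of its class too, -0.31. By definition 5% of a class lies below its 5th percentile, so neither position is a result about SAG29 or GUT2.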

How the data were processed

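The authors deposited 1 log2 signal for each transcript cluster and array. The submitters' processing notes name Affymetrix Expression Console 1.3. How signals were summarized and normalized, and the genome build, were not given in the sources used here. Base 2 is an inference from the range of the values, 0.431 to 13.8. Values were used as deposited. Array medians over all 38408 rows lay between 5.11 and 5.18.

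Rows with 1 gene (16722) were named by the platform annotation and matched to the TAIR10.1 gene table by gene identifier, for names only. Per gene the row with the highest mean was taken. Genes whose highest value was below 2.78 were left out. Members were called at 2-fold and 1.5-fold. With 1 array per group no test was run, and the number of arrays limits the precision. Level classes were set by the WT signal at 5 and 7. A percentage of a class is a rank within these arrays and holds no spread between plants.

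Named genes were all members and, from the other lists, the genes with a row. The symbol LOV1 stood at another locus and was left out. The members and lists were chosen with earlier results of these data known. The counting of calls was checked on simulated data in which 200 genes were raised well past the 2-fold threshold. Their recovery was thus built in, and it says nothing on differences as small as those of the members. The alternatives covered other thresholds (1.5-fold or 3-fold), leaving the filter out or raising it to the median of all gene values, arrays centred on 1 median, quantile or cyclic loess normalization, and averaging a gene's rows. Computations used Python 3.11.15 with numpy 2.4.6 and pandas 2.3.3, and limma 3.58.1 under R 4.3.3 for the normalizations.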

Additional observations from a re-analysis of the deposited data

How the results depend on the processing

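The counts of members past 2-fold were 0 in each line for both families under the 3 normalizations and at 1.5-fold. The other alternatives could not raise a count of 0, since each member has 1 row and passes the filter. Over all alternatives that give one, the medians moved by at most 0.09. With a filter at the median, which left 5 WRKY members, the WRKY median in CEPDL2ox was -0.01 in place of 0.08, so its sign rests on the members with low signals. Under the median shift, quantile and cyclic loess normalizations, 0 of the 24 member ratios turned sign in each, and the largest changes were 0.05, 0.06 and 0.03. No paired analysis was possible because each group has 1 array. For the same reason no replicate could be left out. Signals near background can understate differences in RNA. This would touch WRKY22 and WRKY41 most, the members with a WT signal below 5, but no background level was assessed here.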

Other observations

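The rows that carried a name were an uneven sample of the genome. Of 10492 protein-coding genes with a symbol in the TAIR10.1 gene table, 16.8% had a row of their own, against 86.3% of 17070 genes known there by locus tag only. By their locus tags, 6 of the 8 members lie on chromosome 4. The share of all genes with a row on that chromosome is not given here, so this count is not a result about the members. Another 3 rows that name a WRKY or NAC gene together with a second gene were left unnamed.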
